A study of Mus musculus with 39 samples.

Results

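The genes described here are those listed for regulatory and helper T cells and found by symbol in the deposited count table, 9 of the 10 listed and 9 of the 39676 genes of the table. Il7r, the interleukin-7 receptor chain, was not analysed here. Foxp3, the Ikaros family factor Ikzf2 (Helios), the folate receptor family protein Izumo1r (folate receptor 4), Ccr8 and Il2ra are known for regulatory T cells, Cd4, Cd3e and Cd3g are T cell surface genes, and Cd40lg is a helper T cell gene.

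Regulatory T cells are CD4+ T cells that restrain other T cells, and the transcription factor Foxp3 defines them. They carry the high affinity interleukin-2 receptor chain Il2ra (CD25), and many of those found in tumours also carry the chemokine receptor Ccr8. Helper T cells share the co-receptor Cd4 and the Cd3 chains of the T cell receptor complex with them, and activate antigen-presenting cells through the CD40 ligand Cd40lg.

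The 9 genes were measured in bulk RNA of 39 subcutaneous AB1-HA tumours, a transplanted mouse mesothelioma line, grown in BALB/c mice. The mice received PBS (10 mice), tretinoin (9 mice), immune checkpoint therapy (ICT, 10 mice) or both, tretinoin+ICT (10 mice). Tretinoin, all-trans retinoic acid, was labelled as 5 doses of 5 mg/kg starting on day 4, and the study text gives a different number of doses for these groups. ICT was 100 ug of an anti-CTLA-4 antibody together with 100 ug of an anti-PD-L1 antibody, labelled as starting on day 7, and 1 tumour was resected on day 9. The outcome of the other tumour labelled the tretinoin+ICT mice as responders (n=6) or non-responders (n=4). The outcome in the other 3 treatment groups was not labelled. Mice were described as female and male and aged 8 to 10 weeks, and the Y-linked genes Ddx3y and Uty had no count in any of the 39 tumours.

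The libraries held 14033046 to 37951183 counts, and the median library held 18548168. Levels are CPM, the counts of a gene scaled to a common library size, after TMM scaling over all 39 tumours. Foxp3 had 73 to 598 counts per tumour, Izumo1r 8 to 156, Ccr8 13 to 66 and Cd40lg 2 to 29, so that Cd40lg was the least precisely measured of these. Of the mesothelial and tumour genes, Vim was high, with medians of 3287 to 4025 CPM by treatment. Pdpn had medians of 67.4 to 78.6 CPM and Wt1 of 0.708 to 3.43 CPM, whereas Upk3b, Lrrn4 and Krt19 were under 1 CPM in every tumour.

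A small number of tumours stood apart by their T cell transcripts. In the ICT group, tumours 63 and 82 had Cd3e at 18.7 and 18.1 CPM, against 4.47 to 6.65 CPM in the other 8. Tumour 33 had the highest level of all 9 members in the tretinoin group, and tumour 14 had the highest level of 7 of the 9 in the PBS group. The same tumours were also high for genes that leukocytes share, T cells included, and for macrophage genes. The summed CPM of Ptprc, Cd52, Coro1a and Laptm5 was 2165 in tumour 63 and 1747 in tumour 82, against an ICT median of 1060. The summed CPM of 6 macrophage genes was 5325 in tumour 63 and 4870 in tumour 82, against an ICT median of 3674. The summed level of 9 B cell and lymph node genes was 76.6 CPM in tumour 82, the highest ICT tumour, of which the chemokine Cxcl13 made 62.4 CPM. In tumour 63 that sum was 31.6 CPM, against an ICT median of 34.3 CPM. Calls of a member or a ratio that differed without these tumours are given beside the values from all tumours, and each list of further genes is also counted without tumours 63 and 82. This choice of tumours was made after their T cell transcripts were seen, so values without them are a description. Leaving them out by itself lowers the level of T cell genes in their group, also where a count stands beside the share of all genes.

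The start-site regions of the 3 members that were called lower in at least 1 comparison of all tumours are shown for reference. The sequences are the 250 bases before each RefSeq start on GRCm38.p6, written 5′ to 3′ on the strand of the gene. RefSeq holds 2 starts for Foxp3, both inside the longer GENCODE gene. Capitals mark matches, on either strand, to the retinoid receptor half-site AGGTCA, the RUNX core TGTGGT and the STAT palindrome TTCNNNGAA.
Foxp3, first start, chrX:7579426-7579675, + strand: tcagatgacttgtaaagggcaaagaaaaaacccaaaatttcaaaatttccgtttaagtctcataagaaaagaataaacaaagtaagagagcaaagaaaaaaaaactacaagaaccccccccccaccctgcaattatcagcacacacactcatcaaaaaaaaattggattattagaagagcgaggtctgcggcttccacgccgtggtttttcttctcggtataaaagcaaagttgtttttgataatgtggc
Foxp3, second start, chrX:7580233-7580482, + strand: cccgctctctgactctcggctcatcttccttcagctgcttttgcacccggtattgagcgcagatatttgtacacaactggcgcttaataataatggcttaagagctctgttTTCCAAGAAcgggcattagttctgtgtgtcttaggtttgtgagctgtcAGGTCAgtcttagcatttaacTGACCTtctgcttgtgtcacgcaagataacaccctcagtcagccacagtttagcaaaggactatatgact
Izumo1r, chr9:14903768-14904017, - strand: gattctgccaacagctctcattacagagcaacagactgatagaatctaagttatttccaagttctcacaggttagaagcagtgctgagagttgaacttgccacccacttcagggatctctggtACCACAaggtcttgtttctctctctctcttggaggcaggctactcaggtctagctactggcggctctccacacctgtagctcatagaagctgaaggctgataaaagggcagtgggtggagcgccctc
Ccr8, chr9:120091883-120092132, + strand: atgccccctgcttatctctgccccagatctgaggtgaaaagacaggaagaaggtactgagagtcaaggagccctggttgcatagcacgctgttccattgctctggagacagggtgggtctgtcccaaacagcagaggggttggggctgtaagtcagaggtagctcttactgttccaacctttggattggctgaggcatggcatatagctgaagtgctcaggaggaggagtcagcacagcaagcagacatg
The region before the second Foxp3 start held AGGTCA on each strand, beginning 91 bases (as written) and 70 bases (as TGACCT) before the start, and a STAT palindrome beginning 139 bases before it. The Izumo1r region held 1 RUNX core on the opposite strand, beginning 127 bases before its start. No match was found before the first Foxp3 start or in the Ccr8 region, nor in those of Il2ra, Cd3e and Cd3g, the other members among the 6 of 9 with a region. Among all 32851 regions of the same length, 14% held AGGTCA, 14% TGTGGT and 7.02% TTCNNNGAA. These matches are letters in a window, and no binding was measured.

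To compare genes with each other, CPM was divided by the kilobases of each gene's exons. In PBS tumours the median was highest for Il2ra (3.65 CPM per kb), Cd4 (3.63) and Foxp3 (3.33), followed by Cd3g (2.86), Cd3e (1.97), Ccr8 (1.80), Izumo1r (1.31), Ikzf2 (0.906) and Cd40lg (0.323). Foxp3 RNA was thus of the same order as Cd4 RNA in untreated tumours. All further levels are CPM without division by length.

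**Figure D1:**
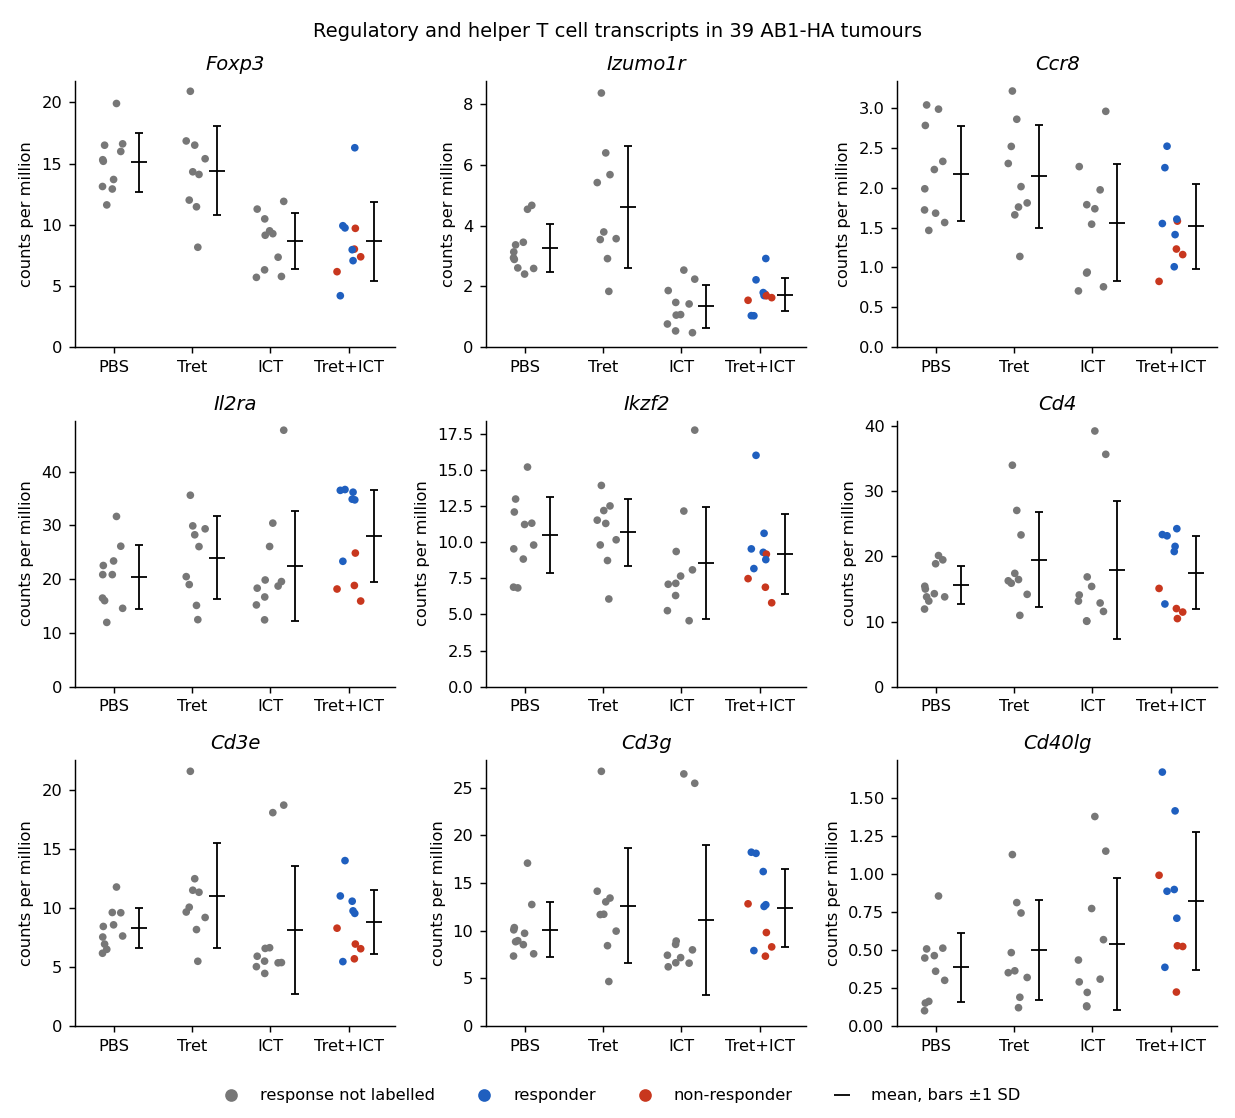
CPM of the 9 genes in each tumour, by treatment (PBS n=10, tretinoin n=9, ICT n=10, tretinoin+ICT n=10). Points are tumours, coloured by response label, and bars are mean ± SD. Foxp3 and Izumo1r sat lower in the ICT and tretinoin+ICT tumours, and 2 ICT tumours stood above the rest for Cd4, Cd3e and Cd3g.

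ICT alone was compared with PBS. Foxp3 and Izumo1r were lower after ICT, whereas the T cell genes Cd3e, Cd3g and Cd4 did not pass the test. Foxp3 ranged from 11.6 to 19.9 CPM in PBS tumours, with a median of 15.3, and from 5.70 to 11.9 CPM in ICT tumours, with a median of 9.21. Of the 10 ICT tumours, 9 lay below every PBS tumour, and tumour 63 was the exception. Its log2 change, with the standard error (SE) from the fit, was -0.80 (SE 0.14, edgeR adjusted p=0.000867), so that Foxp3 fell by 42.7%. In bulk RNA, fewer regulatory T cells and less Foxp3 RNA per cell cannot be told apart. The Foxp3 gene (ENSMUSG00000039521.12, chromosome X, 7573644 to 7595245 in GENCODE M21) overlaps other annotated genes on both strands, and the strand setting of the counting was not given in the sources used here.

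Izumo1r (ENSMUSG00000031933.17, chromosome 9, 14885814 to 14903949) ranged from 2.40 to 4.67 CPM in PBS tumours (median 3.04) and from 0.473 to 2.53 CPM in ICT tumours (median 1.24). Here too 9 of 10 lay under the whole PBS range, with tumour 82 the exception. Its log2 change was -1.30 (SE 0.24, edgeR adjusted p=0.00203), the only one among the members of 1 or more in size.

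Ccr8, which binds the chemokines Ccl1 and Ccl8, had a range of 1.47 to 3.04 CPM in PBS and of 0.706 to 2.96 CPM in ICT tumours. These ranges overlapped widely, and 4 of 10 ICT tumours lay under the whole PBS range. The log2 change was -0.50 (SE 0.24, edgeR adjusted p=0.135). Il2ra and Ikzf2 did not pass the test either, with log2 changes of 0.14 (edgeR adjusted p=0.682) and -0.30 (edgeR adjusted p=0.309).

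Cd3e, a signalling chain of the T cell receptor complex, ranged from 6.18 to 11.8 CPM in PBS tumours (median 8.05) and from 4.47 to 18.7 CPM in ICT tumours (median 5.72). The ICT group was thus split: 6 tumours lay below and 2 above every PBS tumour. The log2 change over all tumours was -0.03 (SE 0.26, edgeR adjusted p=0.952), and those of Cd3g and Cd4 were 0.13 and 0.19 (edgeR adjusted p=0.769 and 0.584). Without tumours 63 and 82, Cd3e fell by 0.56 (edgeR adjusted p=0.00559), Cd3g by 0.44 (edgeR adjusted p=0.0438) and Ikzf2 by 0.59 (edgeR adjusted p=0.0212), and Cd4 had a log2 change of -0.26 (edgeR adjusted p=0.158). Foxp3 fell by 0.88 and Izumo1r by 1.60 without them.

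In all, 8 members were tested between ICT and PBS, of which 0 were called higher and 2 lower at an edgeR adjusted p below 0.05 (3 at an unadjusted p below 0.05, and 2 with DESeq2). Among all 14155 genes tested, 14.1% were called higher and 7.15% lower, and 2.35% also had a log2 change of 1 or more in size, as did Izumo1r. The median log2 change was -0.16 over the members and -0.02 over all genes. Without tumours 63 and 82, 5 members were called lower, and 3.28% of 14289 genes were. Cd40lg was not tested in the 3 comparisons with PBS, since its counts were below the filter. It ranged from 0.101 to 0.854 CPM in PBS tumours and from 0.128 to 1.38 CPM in ICT tumours.

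Tretinoin alone was compared with PBS. None of the 8 members tested passed the edgeR test, with 2 at an unadjusted p below 0.05 and 0 with DESeq2, against 11.5% of 14340 genes called higher, 8.95% lower and 1.62% called with a log2 change of 1 or more in size. Foxp3 had a median of 14.3 CPM after tretinoin (range 8.16 to 20.9), close to the PBS median of 15.3. The log2 change was -0.06 (SE 0.13, edgeR adjusted p=0.767), with a 95% interval of -0.32 to 0.19. Izumo1r ranged from 1.83 to 8.37 CPM (median 3.79), and 4 of the 9 tretinoin tumours lay above every PBS tumour. Its log2 change of 0.50 did not pass the threshold (edgeR adjusted p=0.0997). Cd3e had a median of 10.1 CPM after tretinoin, with 8 of 9 tumours above the PBS median, and a log2 change of 0.42 (edgeR adjusted p=0.108). Tumour 75 was the lowest of the tretinoin group for 8 of the 9 members and tumour 33 the highest for all 9, so the members varied together in this group.

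Tretinoin+ICT was compared with PBS. Foxp3, Izumo1r and Ccr8 were lower and Il2ra was higher. Foxp3 ranged from 4.2 to 16.3 CPM (median 7.99), and 9 of the 10 tumours lay below every PBS tumour. Tumour 45, a responder and the most deeply sequenced library, was the one within the PBS range. Foxp3 fell by 0.79 on the log2 scale (SE 0.17, edgeR adjusted p=0.00052). Izumo1r ranged from 1.03 to 2.92 CPM (median 1.69), with 9 of 10 tumours below every PBS tumour, and fell by 0.89 (SE 0.17, edgeR adjusted p=0.000243). Ccr8 ranged from 0.826 to 2.52 CPM (median 1.48) and fell by 0.52 (SE 0.19, edgeR adjusted p=0.0289). For Ccr8, 5 of the 10 treated tumours lay below every PBS tumour. With all 39 tumours in one fit, and without tumours 14, 33, 63 and 82, Ccr8 missed the threshold (edgeR adjusted p=0.0527 and 0.0532).

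Il2ra rose against PBS. Its range was 15.9 to 36.7 CPM (median 29.8) after tretinoin+ICT and 11.9 to 31.7 CPM (median 20.8) after PBS, and 5 of the 10 treated tumours lay above every PBS tumour. The log2 change was 0.46 (SE 0.19, edgeR adjusted p=0.0475), and it missed the threshold without the low-count filter and with all 39 tumours in one fit (edgeR adjusted p=0.0981 and 0.0768). Il2ra and Foxp3, both used as markers of regulatory T cells, thus moved in opposite directions between these groups. Which cells of the bulk tumours held the Il2ra RNA was not tested. Cd3e, Cd3g, Cd4 and Ikzf2 did not pass the test (log2 changes of 0.09, 0.30, 0.17 and -0.18).

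Cd40lg, the ligand through which helper T cells engage Cd40, had a median of 0.797 CPM after tretinoin+ICT (range 0.224 to 1.67) against 0.404 CPM after PBS. Of the 10 treated tumours, 5 lay above every PBS tumour. Where no low-count filter was applied it rose by 1.07 on the log2 scale (edgeR adjusted p=0.019), and DESeq2 gave 1.09 (adjusted p=0.00929). These values rest on 2 to 29 counts per tumour. Over the 8 members that passed the filter, 1 was called higher and 3 lower, against 25.7% and 24.5% of 14265 genes, and 5.92% of genes but 0 members had in addition a log2 change of 1 or more in size. The share of members called was near the background share of all genes in this comparison.

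**Figure D2:**
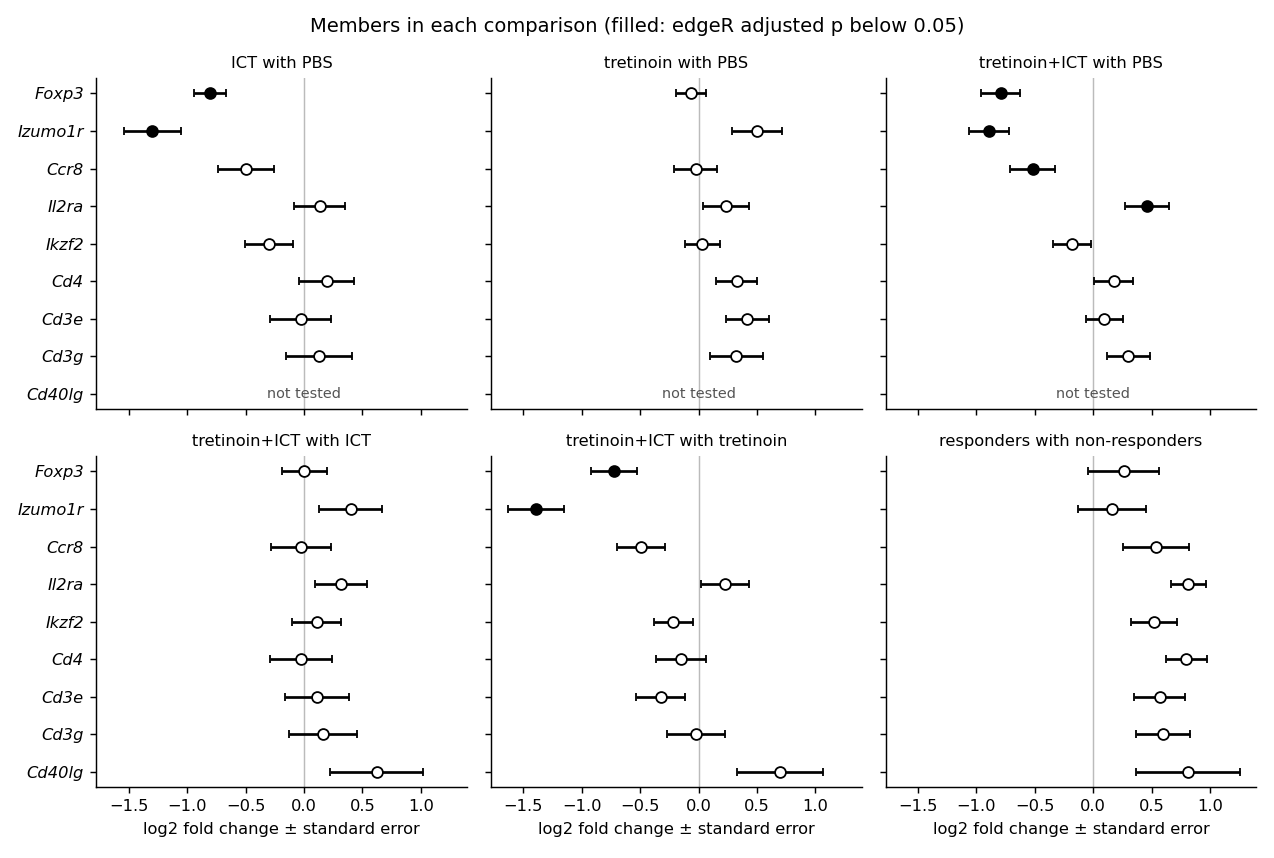
Log2 fold change of each gene in each comparison, with its standard error. Filled points passed an edgeR adjusted p below 0.05. Foxp3 and Izumo1r were below 0 and called in the comparisons of ICT with PBS, of tretinoin+ICT with PBS and of tretinoin+ICT with tretinoin, and no gene was called between responders and non-responders.

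ICT added to tretinoin was assessed by comparing tretinoin+ICT with tretinoin. Foxp3 fell by 0.73 (SE 0.20, edgeR adjusted p=0.0159) and Izumo1r by 1.39 (SE 0.24, edgeR adjusted p=0.00105). For Foxp3, 6 of 10 combination tumours lay below every tretinoin tumour, and for Izumo1r 8 of 10. Ccr8 had a log2 change of -0.49 (edgeR adjusted p=0.0914) and Cd40lg of 0.69 (edgeR adjusted p=0.171). Of 9 members tested, 0 were called higher and 2 lower, against 12.3% and 9.01% of 14393 genes, and 2.08% of genes were called with a log2 change of 1 or more in size.

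Tretinoin added to ICT was assessed by comparing tretinoin+ICT with ICT. None of the 9 members was called by edgeR or DESeq2, and 0 had an unadjusted p below 0.05. Across all 14202 genes, 1.57% were called higher, 0.422% lower and 0.394% with a log2 change of 1 or more in size. For Foxp3 the medians were 7.99 and 9.21 CPM, with a log2 change of 0.00 (SE 0.19, edgeR adjusted p=0.995) and a 95% interval of -0.37 to 0.38. Cd40lg had a log2 change of 0.62 (SE 0.40, edgeR adjusted p=0.392), and Izumo1r of 0.40 (edgeR adjusted p=0.414). This comparison depended on tumours 63 and 82. When both were left out, Cd3g rose by 0.73 (edgeR adjusted p=0.0138), Cd3e by 0.65 (edgeR adjusted p=0.0177), Il2ra by 0.61 (edgeR adjusted p=0.0324) and Cd40lg by 1.16 (edgeR adjusted p=0.0424), so that 4 of 9 members were called higher. In that fit 9.58% of 14322 genes were called higher and 7.32% lower. Leaving out the ICT tumours with the most Cd3e by itself lowers the ICT level of T cell genes, so these calls are not a separate test. Foxp3 had a log2 change of 0.08 without tumours 63 and 82 (edgeR adjusted p=0.8).

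Ordered by its median, Foxp3 was highest in PBS (15.3 CPM), then tretinoin (14.3), ICT (9.21) and tretinoin+ICT (7.99). Neighbours PBS and tretinoin were not separated by the edgeR test, nor were ICT and tretinoin+ICT. For Izumo1r the order was tretinoin (3.79 CPM), PBS (3.04), tretinoin+ICT (1.69) and ICT (1.24), with the same 2 pairs not separated by the test. An interaction term tested whether ICT changed a gene differently with tretinoin than without. It was called for 0 of the 9 members by edgeR or DESeq2, and 0 had an unadjusted p below 0.05. Among 14977 genes, 0.0401% had a positive and 0.267% a negative interaction, and 0.0601% also had a size of 1 or more. The interaction was 0.07 for Foxp3 (SE 0.24, edgeR adjusted p=0.956) and -0.11 for Izumo1r (SE 0.36, edgeR adjusted p=0.95).

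Foxp3 was also set against the T cell transcripts of the same tumour, as the log2 ratio of CPM + 0.5. Relative to Cd3e, Foxp3 averaged 0.83 ± 0.23 (SD, n=10) in PBS, 0.41 ± 0.25 (SD, n=9) in tretinoin, 0.22 ± 0.62 (SD, n=10) in ICT and -0.04 ± 0.67 (SD, n=10) in tretinoin+ICT tumours. By two-sided permutation tests, adjusted over 12 ratio comparisons, the difference from PBS was -0.43 for tretinoin (exact, adjusted p=0.00487), -0.61 for ICT (permutation, adjusted p=0.0147) and -0.88 for tretinoin+ICT (permutation, adjusted p=0.00248). These 3 comparisons share the PBS tumours. Of the ICT tumours, 5 of 10 lay below every PBS tumour on this ratio, and of the tretinoin+ICT tumours 6 of 10. The tretinoin tumours of name set 3 (n=5) ranged from -0.05 to 0.39, below every PBS tumour, and those of set 7 (n=4) from 0.46 to 0.77, all within the PBS range of 0.40 to 1.19. The tretinoin difference thus lay mainly in 1 of its 2 sets. In the tretinoin group, Foxp3 itself had a log2 change of -0.06 and Cd3e of 0.42.

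Relative to Cd4, the averages were -0.04 ± 0.23 (SD, n=10) in PBS, -0.39 ± 0.31 (SD, n=9) in tretinoin, -0.88 ± 0.59 (SD, n=10) in ICT and -0.98 ± 0.67 (SD, n=10) in tretinoin+ICT tumours. In both ICT-treated groups, 8 of 10 tumours lay below every PBS tumour. The differences from PBS were -0.35 for tretinoin (exact permutation test, adjusted p=0.0269), -0.84 for ICT (permutation, adjusted p=0.00168) and -0.94 for tretinoin+ICT (permutation, adjusted p=0.00168). Tretinoin+ICT and tretinoin differed by -0.59 on this ratio (exact permutation test, adjusted p=0.0361) and by -0.45 on the ratio to Cd3e (exact permutation test, adjusted p=0.106). Between tretinoin+ICT and ICT neither ratio passed the test, with differences of -0.27 and -0.10 (permutation, adjusted p=0.439 and 0.728). ICT tumour 82, with the second highest Cd3e of its group, had the lowest ratios of that group, at -0.93 to Cd3e and -2.02 to Cd4. When tumours 14, 33, 63 and 82 were left out, the ICT difference was -0.37 relative to Cd3e (exact permutation test, adjusted p=0.0558) and -0.61 relative to Cd4 (exact permutation test, adjusted p=0.00856). The tretinoin difference relative to Cd4 was then -0.31 and missed the threshold (exact permutation test, adjusted p=0.0635).

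**Figure D3:**
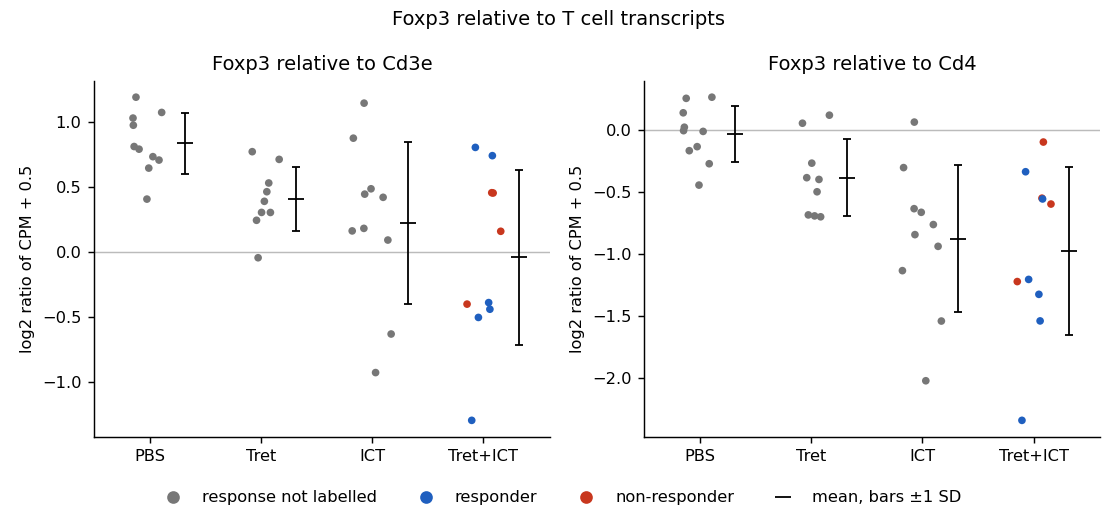
Log2 ratio of Foxp3 to Cd3e (left) and to Cd4 (right), each as CPM + 0.5, in every tumour by treatment. Points are tumours, coloured by response label, and bars are mean ± SD. The PBS mean is highest on both. Of the 10 ICT tumours, 5 lay below every PBS tumour on the ratio to Cd3e and 8 on the ratio to Cd4. ICT and tretinoin+ICT tumours reach down to -0.93 and -1.30 on the ratio to Cd3e.

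Within the tretinoin+ICT group, responders were compared with non-responders on day 9. All 9 members had a higher level in responders by log2 change, and none was called by edgeR at this group size, with 5 at an unadjusted p below 0.05. Among all 14604 genes, 0% were called higher, 0% lower and 0% with a log2 change of 1 or more in size by edgeR, whereas 3302 had an unadjusted p below 0.05. DESeq2 called 864 genes higher and 512 lower, including 2 members, Il2ra and Cd4.

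Il2ra and Cd4 had the smallest p among the members. Il2ra ranged from 23.3 to 36.7 CPM in responders (median 35.5) and from 15.9 to 24.8 CPM in non-responders (median 18.5), with 5 of 6 responders above every non-responder. The log2 change was 0.81 (SE 0.15, edgeR adjusted p=0.0841, DESeq2 adjusted p=0.000193). Cd4 ranged from 12.7 to 24.3 CPM in responders and from 10.4 to 15.1 CPM in non-responders, again with 5 of 6 responders above, and had a log2 change of 0.80 (SE 0.18, edgeR adjusted p=0.0841, DESeq2 adjusted p=0.00216). The exception for both genes was responder tumour 43. Without it, Il2ra, Cd4, Cd3e and Cd3g were called by edgeR, with log2 changes of 0.88, 0.88, 0.67 and 0.70 (edgeR adjusted p=0.00441, 0.00441, 0.0202 and 0.0314), as were 6.68% of 14540 genes higher and 5.74% lower. In the other 9 fits that left out 1 tumour, 0 members were called by edgeR. Tumour 43 is named for its low Il2ra and Cd4, so the fit without it is a description and not a separate test.

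Cd3e had a median of 10.2 CPM in responders and 6.77 CPM in non-responders (log2 change 0.57, edgeR adjusted p=0.151), and 5 of 6 responders lay above every non-responder. Foxp3 did not separate the labels: it ranged from 4.2 to 16.3 CPM in responders and from 6.16 to 9.71 CPM in non-responders (log2 change 0.26, SE 0.30, edgeR adjusted p=0.646). Responders held both the lowest (tumour 41) and the highest (tumour 45) Foxp3 level of the combination group. The ratio of Foxp3 to Cd4 was -1.22 ± 0.72 (SD, n=6) in responders and -0.62 ± 0.46 (SD, n=4) in non-responders (exact permutation test, adjusted p=0.241). The ratio to Cd3e was -0.18 ± 0.81 (SD, n=6) and 0.16 ± 0.40 (SD, n=4) (exact permutation test, adjusted p=0.499).

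The first digit of the tumour names divides the combination group into a set 2 (2 responders, 3 non-responders) and a set 4 (4 responders, 1 non-responder), a division whose meaning the labels do not state. In set 2, Il2ra was 36.2 to 36.7 CPM in responders and 15.9 to 18.8 CPM in non-responders. In set 4 the responders ranged from 23.3 to 36.5 CPM and the single non-responder had 24.8 CPM. Cd4 in set 2 was 21.5 to 23.2 CPM in responders and 11.4 to 15.1 CPM in non-responders. In set 4 it was 12.7 to 24.3 CPM in responders and 10.4 CPM in the non-responder. The ranges did not overlap in set 2 for either gene, nor for Ikzf2, Ccr8 and Cd3e, while those of Foxp3, Izumo1r, Cd3g and Cd40lg did. With 2 and 3 tumours, ranges can lie apart without any difference between the labels. The share of all genes with ranges apart was not computed. Each treatment likewise consists of 2 such sets, and no set holds 2 treatments, so that set could not enter a fit beside treatment. Between the 2 sets of 1 treatment, mean log2 CPM of Foxp3 differed by -0.02 in PBS, 0.0072 in ICT, -0.29 in tretinoin and 0.21 in tretinoin+ICT tumours. With each ICT set compared with each PBS set, the difference in mean log2 CPM was between -0.84 and -0.81 for Foxp3 and between -1.51 and -1.19 for Izumo1r, below 0 in all 4 pairs.

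Relations between members were measured across the 39 tumours after removing each treatment group's mean from log2 CPM. Of 36 pairs, 33 had a positive Pearson r at a permutation p adjusted over the pairs below 0.05, and the median r was 0.65. Among T cell surface genes, Cd3e and Cd3g had r=0.95 (Spearman rho 0.89, permutation adjusted p=2.4e-05 and 2.6e-05), and Cd3e and Cd4 had r=0.93 (rho 0.91, the same permutation adjusted p). The unadjusted p of 1e-05 for these pairs is the smallest that the 100000 permutations can give. Without the 2 tumours farthest from the median of the first gene, r was 0.92 and 0.89.

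Foxp3 was positively related to Izumo1r (r=0.75, rho 0.67, permutation adjusted p=2.4e-05 and 8.5e-05) and Ccr8 (r=0.64, rho 0.72, permutation adjusted p=9.5e-05 and 4.8e-05) at this threshold. Its r was lower with Cd3e (r=0.39, rho 0.32, permutation adjusted p=0.028 and 0.075) and with Cd40lg (r=0.16, rho 0.18, permutation adjusted p=0.35 and 0.3). Il2ra and Ikzf2 had r=0.48 and 0.51 with Foxp3 (permutation adjusted p=0.0036 and 0.0022), and higher r with Cd3e, at 0.83 and 0.81. For Izumo1r and Ccr8, r with Cd3e was 0.67 and 0.50, below their r with Foxp3. Tumours 41 and 45 were the 2 farthest from the median Foxp3 level. Without them, r was 0.75 with Izumo1r, 0.79 with Ccr8 and 0.52 with Cd3e. Without the T cell rich tumours 14, 33, 63 and 82 instead, r was 0.73 with Izumo1r, 0.57 with Ccr8, 0.20 with Cd3e and -0.05 with Cd40lg. A test of the difference between these r values was not made.

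**Figure D4:**
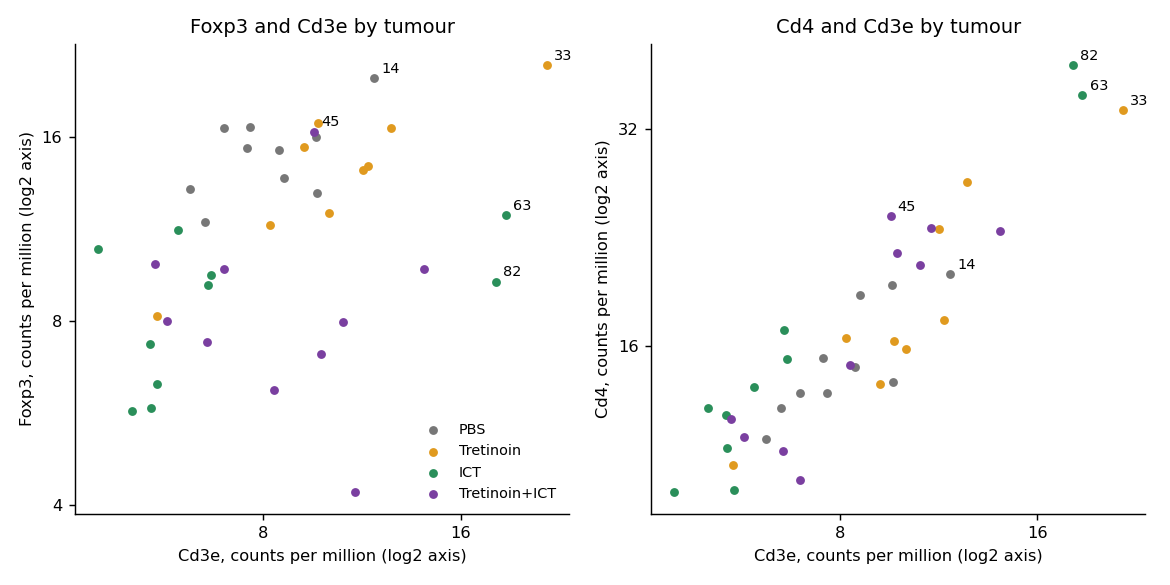
Foxp3 (left) and Cd4 (right) against Cd3e in each of the 39 tumours, in CPM on log2 axes, coloured by treatment. The numbers name tumours described in the text. Cd4 follows Cd3e across treatments, whereas ICT tumours 63 and 82 have high Cd3e (18.7 and 18.1 CPM) with Foxp3 at 11.9 and 9.27 CPM.

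Among 14977 expressed genes, those most like Foxp3 over the 39 tumours, by Pearson r of log2 CPM with group means removed, were Izumo1r (r=0.75), the little studied transcripts D930015M05Rik (0.69) and RP24-233B16.8 (0.69), Mturn (0.66) and Rln3 (0.65). For Cd3e they were its partner chain Cd3g (0.95), the T cell receptor alpha constant gene Trac (0.95), the T cell kinase Lck (0.94), Cd4 (0.93) and the adaptor Lat (0.92). The genes like Cd3e were thus T cell genes, with r at 0.83 or above also without tumours 14, 33, 63 and 82. Without those tumours, r with Foxp3 was 0.73 for Izumo1r and 0.75 for D930015M05Rik.

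Further genes of the T cell receptor complex and T cell surface were examined as a list of 19. With ICT alone 0 of 19 were called by edgeR or by DESeq2 (2 at an unadjusted p below 0.05), with a median log2 change of 0.31. With tretinoin 1 of 19 rose, Ubash3a (0.58, edgeR adjusted p=0.045), beside 11.5% of all genes. With tretinoin+ICT 9 of 19 rose and 1 fell against PBS (median 0.46), beside 25.7% and 24.5% of all genes. Those that rose included Zap70, the kinase downstream of the receptor (0.88, edgeR adjusted p=0.000271), and the adaptor Skap1 (1.04, edgeR adjusted p=0.000386). The costimulatory receptor Cd27 fell by 0.71 (edgeR adjusted p=0.00244). With all tumours the chain Cd3d was not called by edgeR in any comparison. Without tumours 63 and 82, 3 of 19 fell with ICT, beside 3.28% of all genes, and 14 of 19 rose in tretinoin+ICT against ICT, beside 9.58% of all genes. With all tumours 0 were called between tretinoin+ICT and ICT. In tretinoin+ICT against tretinoin, 1 rose and 1 fell with all tumours, beside 12.3% and 9.01% of all genes. Tumours 63 and 82 were left out for their high T cell transcripts, which by itself lowers the ICT level of such genes. The counts without them are therefore a description and not a test. Without tumours 14, 33, 63 and 82, 3 of 19 rose with tretinoin, 13 rose and 1 fell with tretinoin+ICT against PBS, and 5 rose and 1 fell against tretinoin. Of all genes, 11.8%, 25.5% and 16.4% rose in these fits, and 25.5% and 14.6% fell in the last 2. Between responders and non-responders, 0 of 19 were called by edgeR, 18 had an unadjusted p below 0.05 and DESeq2 called 14, all higher in responders (median 0.65). Among all genes, edgeR called 0, 3302 of 14604 had an unadjusted p below 0.05, and DESeq2 called 864 of 14148 higher.

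Other genes associated with regulatory T cells (a list of 18) moved in both directions. After ICT 5 rose and 3 fell of 17 tested, beside 14.1% and 7.15% of all genes, with a median of 0.14. In the fit without tumours 63 and 82, 3 rose and 4 fell, beside 7.82% and 3.28% of all genes. Ctla4, a checkpoint receptor high on regulatory T cells and the target of one of the antibodies, ranged from 7.17 to 20.7 CPM in PBS tumours (median 11.8) and from 3.79 to 14.3 CPM after ICT (median 6.87), a fall by 0.77 on the log2 scale (SE 0.20, edgeR adjusted p=0.0115). It fell by 0.42 after tretinoin+ICT (edgeR adjusted p=0.0483), a call that was lost without tumours 14, 33, 63 and 82 (-0.32, edgeR adjusted p=0.105). The TGF-beta docking protein gene Lrrc32 (GARP) fell by 0.47 after ICT (edgeR adjusted p=0.00395) and rose by 0.82 after tretinoin (edgeR adjusted p=1.82e-06) and by 0.29 after tretinoin+ICT (edgeR adjusted p=0.0111). Il1rl1, the interleukin-33 receptor, rose by 1.07 after ICT (edgeR adjusted p=0.00108), and the transcription factors Irf4 and Batf rose by 0.75 and 0.72 (edgeR adjusted p=0.0111 and 0.0136). Batf without tumours 63 and 82 had a log2 change of 0.43 (edgeR adjusted p=0.0505). Other cells also use these genes, and the part of each cell type was not tested. Tnfrsf18 (GITR) had a log2 change of -0.02 (edgeR adjusted p=0.947). Over the other comparisons, 6 of 18 rose and 0 fell with tretinoin, where 11.5% of all genes rose. With tretinoin+ICT 9 of 18 rose and 2 fell against PBS, beside 25.7% and 24.5% of all genes, 1 of 17 rose against ICT (9 of 17 without tumours 63 and 82), and 3 rose and 1 fell of 18 against tretinoin. Of all genes, 1.57% rose against ICT (9.58% without those tumours), and 12.3% rose and 9.01% fell against tretinoin.

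The 4 ligands of Ccr8 and Ccr4, chemokines that attract regulatory and type 2 helper T cells, all rose in the ICT-treated groups, in which Foxp3 fell. Ccl17 ranged from 1.14 to 3.59 CPM in PBS tumours, from 3.92 to 22.2 CPM after ICT and from 8.42 to 40.3 CPM after tretinoin+ICT, without overlap with PBS in either. It had log2 changes of 2.26 after ICT and 3.45 after tretinoin+ICT (edgeR adjusted p=0.000113 and 3.88e-07). Ccl22 rose by 1.23 and 1.86 in the same comparisons, Ccl1 by 1.62 and 1.78 and Ccl8 by 1.07 and 1.30 (edgeR adjusted p of 0.0215 or below). All 4 were called against PBS in both ICT-treated groups, where 14.1% and 25.7% of all genes rose, and 2 of 4, Ccl17 (1.59) and Ccl22 (0.95), with tretinoin alone (edgeR adjusted p=0.00352 and 0.0116). The medians of the list were 1.43 with ICT, 0.99 with tretinoin and 1.82 with tretinoin+ICT. Between tretinoin+ICT and ICT 0 of 4 were called (2 at an unadjusted p below 0.05, and 1 with DESeq2), and 2 of 4 rose against tretinoin. Of all genes, 1.57% and 12.3% rose in these comparisons, and 11.5% with tretinoin alone. Without tumours 63 and 82, 3 of 4 rose with ICT, since Ccl1 had a log2 change of 1.02 (edgeR adjusted p=0.129), and 2 of 4 rose in tretinoin+ICT against ICT. In these fits 7.82% and 9.58% of all genes rose. Responder medians exceeded those of non-responders for Ccl17 (37.2 and 10.7 CPM) and Ccl22 (107 and 42.5 CPM), with an edgeR adjusted p of 0.0841 for each.

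**Figure D5:**
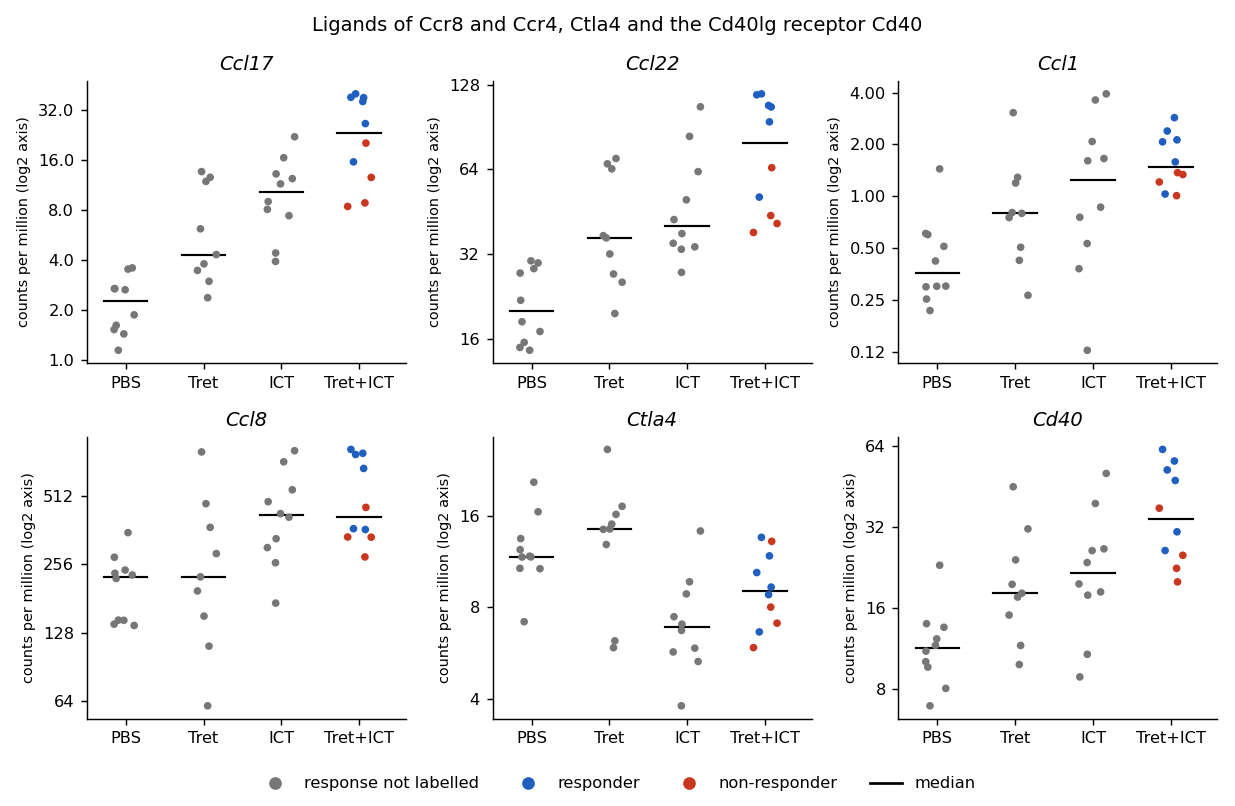
CPM on log2 axes of the 4 Ccr8 and Ccr4 ligands, of Ctla4 and of Cd40 in each tumour by treatment. Points are tumours, coloured by response label, and lines are medians. Ccl17 medians were 2.26, 4.32, 10.3 and 23.5 CPM from left to right, whereas Ctla4 was lowest after ICT (6.87 CPM).

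Genes of IL-2 and IL-7 signalling were examined as a list of 12. After ICT 7 of 12 rose and 0 fell, and after tretinoin+ICT 10 of 12 rose (medians 0.36 and 0.61), beside 14.1% and 25.7% of all genes. When tumours 63 and 82 were left out, 5 of 12 rose with ICT and 5 of 12 in tretinoin+ICT against ICT. In these fits 7.82% and 9.58% of all genes rose. The cytokine-induced inhibitors Cish and Socs2 led, with log2 changes of 1.34 and 0.70 after ICT (edgeR adjusted p=0.0014 and 0.00489) and of 2.12 and 1.42 after tretinoin+ICT (edgeR adjusted p=1.6e-06 and 3.17e-06). Both are also induced by other cytokines. Il2 itself, at medians of 4.21 to 5.04 CPM by treatment, and Il7 were not called in any comparison. With tretinoin 4 of 12 rose, beside 11.5% of all genes. In tretinoin+ICT tumours 6 of 12 rose against tretinoin and 0 of 12 against ICT (3 at an unadjusted p below 0.05, and 1 with DESeq2). Of all genes, 12.3% rose against tretinoin and 1.57% against ICT.

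Among 17 genes of helper T cell lineages, 3 of 11 tested rose after ICT, 4 of 11 after tretinoin and 7 of 12 after tretinoin+ICT against PBS, where 1 fell. Of all genes, 14.1%, 11.5% and 25.7% rose in these comparisons, and 24.5% fell in the last. In the fits without tumours 63 and 82, 2 of 11 rose and 1 fell with ICT, and 5 of 12 rose in tretinoin+ICT against ICT. In these fits 7.82% of all genes rose and 3.28% fell with ICT, and 9.58% rose against ICT. The type 1 helper factor Tbx21 (T-bet) rose by 1.07 after tretinoin and by 1.76 after tretinoin+ICT (edgeR adjusted p=0.00244 and 5.68e-06), and had a log2 change of 0.71 after ICT (edgeR adjusted p=0.0657). Il12rb2, the interleukin-12 receptor chain of type 1 helper cells, rose by 1.43 after ICT and by 1.79 after tretinoin+ICT (edgeR adjusted p=0.00676 and 1.64e-05). Il13, a type 2 cytokine, had medians of 0.155 CPM in PBS and 1.67 CPM in tretinoin+ICT tumours (log2 change 3.92, edgeR adjusted p=1.1e-05). The type 2 factor Gata3 fell by 0.37 (edgeR adjusted p=0.0142), and the follicular helper factor Bcl6 rose by 0.49 (edgeR adjusted p=6.35e-05). NK cells and innate lymphocytes use Tbx21, Il12rb2 and Il13 as well. The PBS median of Bcl6 was 43.6 CPM, above the 14.6 CPM of Cd4, and the cells that held its RNA were not tested. Against tretinoin 3 of 12 rose, and against ICT 0 of 12 did (3 at an unadjusted p below 0.05, and 3 with DESeq2), beside 12.3% and 1.57% of all genes.

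The Cd40lg receptor Cd40 rose by 1.0 after ICT, by 0.83 after tretinoin and by 1.66 after tretinoin+ICT (edgeR adjusted p=0.0154, 0.0317 and 1.73e-05). Its medians were 11.4, 18.2, 21.7 and 34.2 CPM in PBS, tretinoin, ICT and tretinoin+ICT tumours, and 8 of 10 combination tumours lay above every PBS tumour. Of 8 genes of CD40 signalling, 3 rose with ICT, 3 with tretinoin, and 5 rose and 1 fell with tretinoin+ICT, where the kinase Map3k14 (NIK) of the noncanonical pathway rose by 0.41 (edgeR adjusted p=2.9e-06). Against ICT 1 of 8 rose, and against tretinoin 5 did, beside 1.57% and 12.3% of all genes. Of all genes, 14.1% rose with ICT, 11.5% with tretinoin and 25.7% with tretinoin+ICT. With tumours 63 and 82 left out, 0 of 8 were called with ICT by edgeR (4 at an unadjusted p below 0.05, DESeq2 not run), Cd40 had a log2 change of 0.66 (edgeR adjusted p=0.078), and 2 of 8 rose in tretinoin+ICT against ICT. In these fits 7.82% and 9.58% of all genes rose.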

How the data were processed

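The authors sequenced RNA from 39 AB1-HA tumours on a NovaSeq instrument. Per the labels, bcl2fastq 2.20.0.422 and HISAT2 2.0.4 were used, and the paper's methods name SummarizeOverlaps for counting. The authors deposited 1 table of raw counts per gene, without normalization. The strand mode and the handling of multiply aligned reads were not given in the sources used here. Coordinates are from GENCODE M21, matched by identifier (92.55% with the same version, not that of Foxp3). The samples were taken as separate mice, as the series design describes.

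Each comparison was fitted on its own groups with edgeR 4.0.16 (TMM, filterByExpr, robust quasi-likelihood test, R 4.3.3) over all genes, with Benjamini-Hochberg adjustment. The SE of a log2 change was its size over the square root of F, and 95% intervals are 1.96 standard errors. Two-sided permutation tests were used for ratios, exact with a group under 10 and otherwise with 100000 resamples (scipy, Python). Tested on simulated counts with 200 genes changed by 0.8 on the log2 scale, edgeR recovered 168 for ICT with PBS (14065 genes), 121 for responders with non-responders (14421 genes) and 131 for the interaction (14838 genes). DESeq2 1.42.0, its size factors in edgeR, no filter, 1 fit of all tumours, a fold minimum, leaving out tumours, other pseudocounts (2 CPM) and variance stabilized values were the alternatives. Of the 45 pairs of members planned, 36 could be formed.

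The members, the 13 gene lists and the tests were chosen with earlier results of these data known. Named genes were the members, up to 3 called genes per list and comparison with the smallest adjusted p, 12 genes fixed by name, and the 5 genes most like Foxp3 and Cd3e. Other list genes were named after their values were seen. Some listed genes are not analysed or not reported here. Sequences are from RefSeq (GRCm38.p6).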

Additional observations from a re-analysis of the deposited data

Results flagged for a closer look

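Within the responders, tumour 43 was farthest from the other 5 for 2 members. Its Il2ra was 23.3 CPM, and its gap to the next tumour was 0.88 of the group's range. Its Cd4 was 12.7 CPM, with a gap of 0.76 of the range. These were the 2 such values among 54 groups of 4 to 10 tumours, in which chance flags about 1 in 20, so that 2 of 54 is no more than chance gives. Tumour 43 also had the lowest Cd3e (5.48 CPM), Cd3g (7.92 CPM), Ikzf2 (8.18 CPM), Izumo1r (1.03 CPM) and Cd40lg (0.386 CPM) of the 6 responders, while its Foxp3 (9.92 CPM) lay within their range. The part of the tumour's cell content in these values was not tested.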

How the results depend on the processing

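No paired analysis was possible because the labels give no replicate number other than the tumour names, which are not said to pair tumours of different mice. Foxp3 and Izumo1r kept their direction and their call between ICT and PBS in all 20 fits that left out 1 tumour (log2 changes of -0.86 to -0.75 and -1.44 to -1.19) and in the 4 other fits set out in advance. Both were also called in those 4 fits between tretinoin+ICT and either PBS or tretinoin, where no single tumour was left out. Leaving out 1 tumour gave 0 to 4 members called higher in responders (4 without responder tumour 43), where DESeq2 called 2. With a log2 change of 1 or more in size, the members called lower were 1 with ICT, 0 with tretinoin+ICT against PBS and 1 against tretinoin, and 0 rose against PBS. DESeq2 called 2 members higher with tretinoin+ICT (Il2ra and Cd40lg). The count of 1 also held without a low-count filter and with all tumours in one fit, where Cd40lg replaced Il2ra. For all genes, responders and non-responders gave 0 calls with edgeR and 864 higher and 512 lower with DESeq2. Tretinoin+ICT against ICT gave 223 higher and 60 lower, 422 and 167 with DESeq2, 471 and 270 with all tumours in one fit, and 1372 and 1048 without tumours 63 and 82.

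The fits in this paragraph without several tumours were chosen after seeing the data. Without tumours 63 and 82, and without 14, 33, 63 and 82, 5 members were called lower with ICT, and 4 were called higher in tretinoin+ICT than in ICT. Of all genes, 3.28% and 5.23% were called lower with ICT in these fits, and 9.58% higher in tretinoin+ICT than in ICT. Without the 4 tumours, the ratio to Cd3e for ICT (-0.37) and to Cd4 for tretinoin (-0.31) missed the threshold (exact permutation tests, adjusted p=0.0558 and 0.0635). Direction changed for values that were not called with all tumours. Between ICT and PBS, Cd3g was -0.44 and -0.33, Cd4 -0.26 and -0.21 and Il2ra -0.16 and -0.063 without the 2 and the 4 tumours. Between tretinoin+ICT and ICT, Cd4 was 0.43 and Ccr8 0.17. Against tretinoin, Cd3g was 0.19 without the 4 tumours. For the interaction, Cd3g was 0.43 and 0.51, Cd4 0.12 and 0.20, Izumo1r 0.21 and 0.29, Cd3e 0.24 and 0.34, and Ccr8 0.20 and 0.22. Foxp3 in tretinoin+ICT against ICT was -0.00034 with DESeq2, and the Ccr8 interaction was 0.0021 without a filter. When 1 tumour was left out, Cd3e between ICT and PBS was -0.25 to 0.042, Cd3g -0.10 to 0.24, Cd4 -0.0080 to 0.26 and Il2ra -0.055 to 0.22, and Izumo1r in responders was -0.057 to 0.27. Of the relations, 35 of 36 pairs were called with variance stabilized values and 29 without centring. The cause of these changes was not tested. Low counts limit Cd40lg (median 9 per tumour), Ccr8 (32) and Izumo1r (40).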

Other observations

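Transcripts listed for other cell types were counted in the same fits, in which 14.1% of all genes rose with ICT, 11.5% with tretinoin and 25.7% with tretinoin+ICT against PBS. Cell numbers were not measured. Of 7 genes of CD8 T cells and NK cells, 4 rose with ICT and 5 with tretinoin+ICT against PBS (medians 0.75 and 1.03), led by the NK and T cell receptor Klrk1 (1.11 and 1.5) and the granule protein Nkg7 (1.02 and 1.46), while Cd8a was not called (0.55 and 0.33, edgeR adjusted p=0.326 and 0.264). With tumours 63 and 82 left out, 0 of 7 were called with ICT by edgeR (3 at an unadjusted p below 0.05, DESeq2 not run, Klrk1 0.67 and Nkg7 0.46, edgeR adjusted p=0.109 and 0.111). With tretinoin 1 of 7 rose, Eomes. All 6 macrophage genes tested rose with ICT and with tretinoin+ICT, and 3 of 6 rose with tretinoin. Their summed level had medians of 2425, 3111, 3674 and 4309 CPM in PBS, tretinoin, ICT and tretinoin+ICT tumours. Of 7 dendritic cell genes, 2 rose with ICT, 1 with tretinoin and 3 with tretinoin+ICT, the last led by Itgax (1.43, edgeR adjusted p=1.6e-05). Of 4 leukocyte genes, 3 rose with ICT, 1 with tretinoin and 4 with tretinoin+ICT. The counts with ICT without tumours 63 and 82 were 5 of 6 macrophage, 1 of 7 dendritic cell and 1 of 4 leukocyte genes, where 7.82% of all genes rose. In tretinoin+ICT against ICT without them, 4 of 7 CD8 T cell and NK cell genes and 3 of 6 macrophage genes rose. So did 3 of 7 dendritic cell and 2 of 4 leukocyte genes, beside 9.58% of all genes. With all tumours 0 genes of these lists rose against ICT, beside 1.57% of all genes.

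Among genes of naive and memory T cells, 2, 3 and 5 of 7 tested rose with ICT, tretinoin and tretinoin+ICT. Klf2, a factor of resting T cells that endothelial cells also express, rose by 0.54 and 1.05 in the first and the last. The B cell and lymph node list was not called with ICT (0 of 6, 1 at an unadjusted p below 0.05, 0 with DESeq2). Its chemokine Cxcl13 fell by 1.0 with tretinoin and by 1.53 with tretinoin+ICT (edgeR adjusted p=0.027 and 5.4e-05), and Cxcr5 rose with tretinoin+ICT (0.58, edgeR adjusted p=0.0055). Of 3 mesothelial and tumour genes tested, Wt1 rose with each treatment (1.40 with ICT, 1.12 with tretinoin and 2.39 with tretinoin+ICT), Pdpn rose with ICT and tretinoin+ICT, and Vim fell by 0.27 with tretinoin. Without tumours 63 and 82, 2 of 7 naive and memory T cell genes and 2 of 3 mesothelial and tumour genes rose with ICT. Of 7 B cell and lymph node genes, 0 were called (3 at an unadjusted p below 0.05), and 7.82% of all genes rose. In tretinoin+ICT against ICT without them, 6 of 7, 1 of 3 and 3 of 7 genes of these lists rose, beside 9.58% of all genes. With all tumours 1, 0 and 0 did, beside 1.57% of all genes. These counts are a description. In the comparison of the 2 name sets of the tretinoin group, all 9 members were lower in set 7 (n=4) than in set 3 (n=5), by 0.29 for Foxp3, 0.69 for Cd3e and 1.18 for Cd40lg on the log2 scale.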
